A study of Mus musculus with 5 samples.

Results

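The genes described here run the lysosome and autophagy: the subunits of the vacuolar proton pump (V-ATPase), cathepsins and other acid hydrolases, lysosomal membrane proteins, the autophagy machinery and regulators of both. The members were listed as 57 gene symbols, chosen with earlier results of these data known, and 56 of them were measured among 19938 genes. Each was read from its brightest probe set (by the mean of all 5 arrays) among those annotated to a single symbol. Atp6v0c, which codes for the proton-carrying ring subunit, had no such probe set. Expression was measured on 5 one-colour Affymetrix arrays of lung natural helper cells, innate lymphocytes that make type 2 cytokines, from naive C57Bl/6 mice aged 6 to 8 weeks. The gate took cells negative for lineage markers, positive for Sca-1, CD127 and CD25, and negative or low for c-Kit. Arrays of 2 samples cultured for 3 days with 60 ng/ml PMA, which switches on protein kinase C, and 500 ng/ml ionomycin, a calcium ionophore, are called stimulated here. They were compared with arrays of 3 unstimulated samples whose RNA was extracted right after sorting. The sample labels call the cells lung leukocytes. They tie no sample to a mouse or a culture of its own, so a p-value here covers only the spread from sample to sample, and that spread may be technical. Since the stimulated cells were also cultured, 3 days in medium and the activators cannot be told apart.

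The lysosome is the acidic compartment in which cells break down proteins, lipids and sugars. Its low pH is set by the V-ATPase, a rotary pump in which a peripheral V1 domain splits ATP and a membrane-bound V0 domain moves protons. Autophagy wraps cytoplasm in a double membrane and delivers it to lysosomes. In many cell types the transcription factors TFEB and TFE3 raise lysosomal genes through the CLEAR element, and the growth kinase complex mTORC1 holds both factors and the start of autophagy in check. Lymphocytes that leave rest and grow are known to change mTORC1 activity and nutrient use, which makes these genes of interest in activated innate lymphocytes.

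None of the 13 measured marker genes of natural helper cells had a mean below the middle value over all probe sets, but genes outside the gate were bright as well. Gata3, the main transcription factor of these cells, read 10.2 and 10.2 on the stimulated arrays, against 10.8, 10.8 and 10.6 on the unstimulated arrays (log2 expression). Of 13 measured marker genes of natural helper cells, 5 fell (Rora, Id2, Il17rb, Il7r and Kit), or 38.5%, against 0.963% of all genes. None rose, but the markers did not all go 1 way. Without overlap, 8 were lower (61.5%, against 14.0% of all genes) and 3 higher (23.1%, against 18.6%). The higher ones were Il13, Il5 and Il2ra. Il2ra, the gene of CD25, averaged 10.9 on the stimulated and 10.7 on the unstimulated arrays (limma adjusted p = 0.101). Il7r, the gene of CD127, averaged 10.1 on the stimulated and 10.9 on the unstimulated arrays (limma adjusted p = 0.0229), and Ly6a, the gene of Sca-1, was not measured. The middle value over all probe sets was 5.64 on the log2 scale, and the lower quartile was 4.49. Markers of airway, endothelial and myeloid cells differed between the unstimulated arrays. Scgb1a1, a secretory protein of airway cells, read 6.95 and 7.97 on the stimulated arrays, against 11.2, 10.6 and 8.67 on unstimulated arrays 1, 2 and 3. Xist, which is made from the silenced X of female cells, averaged 4.13 on the stimulated and 9.65 on the unstimulated arrays, and the labels give no sex, so sex cannot be told apart from stimulation either. Of the members, Lamp2 and Tfe3 lie on the X chromosome.

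Few of these genes passed the test, while the groups of arrays lay apart for more of them than among all genes. After PMA and ionomycin, 1 of 56 measured members rose and none fell at an adjusted p under 0.05 (limma, Benjamini-Hochberg over all 19938 genes), against 0.737% of all genes that rose and 0.963% that fell. The one that rose was the pump subunit gene Atp6v1c1. At an unadjusted p under 0.05 there were 8 members higher and 8 lower, or 14.3% each way, against 11.3% and 8.58% of all genes. The means of 33 members were higher after stimulation (58.9%, against 53.3% of all genes), and 3 members differed by 1 or more on the log2 scale (5.36%, against 4.96%). The 2 groups of arrays did not overlap for 30 members (53.6%, against 32.5%), with the stimulated arrays higher for 20 (35.7%, against 18.6% of all genes) and lower for 10 (17.9%, against 14.0%). The members' median difference was 0.04 on the log2 scale, stimulated minus unstimulated, and that of all genes was 0.00. As these are bulk samples, fewer cells of a type and less RNA per cell cannot be told apart. For 21 members (37.5%), and for 62.0% of all genes, at least 2 arrays held exactly the same number, to all 5 decimals given. A number shared by a stimulated and an unstimulated array makes the groups overlap in this count. The members were also brighter: the mean of 4 of 56 lay below the middle value over all probe sets, against 9582 of 19938 genes. The part of these traits in the larger share of members without overlap was not tested.

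**Figure D1:**
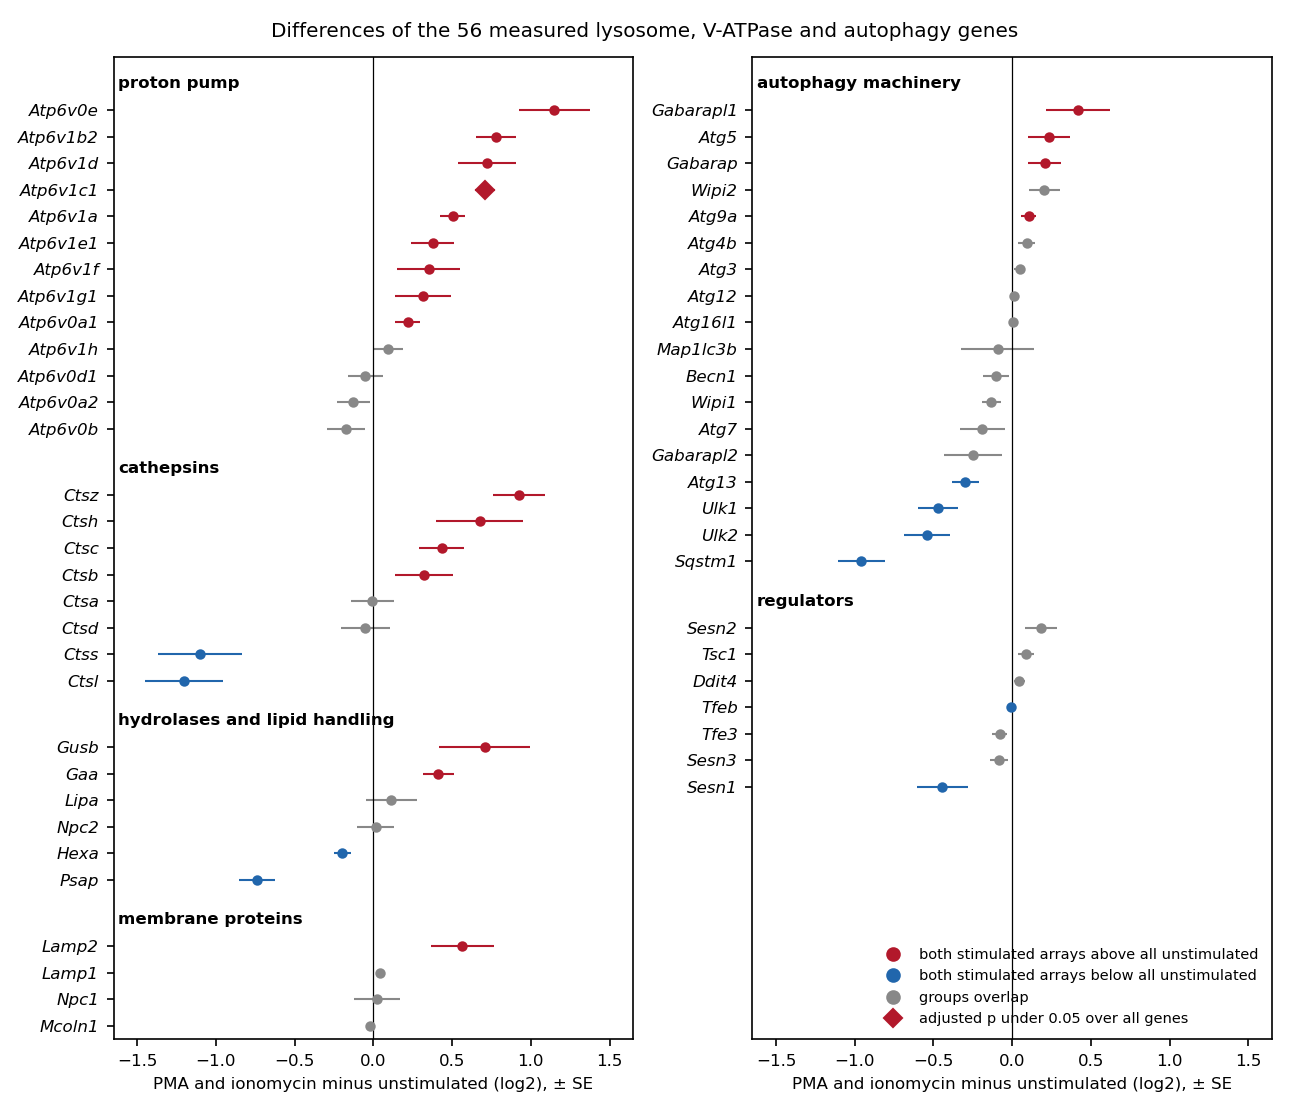
Difference of each of the 56 measured members, stimulated minus unstimulated (log2), and its standard error in the limma fit (n = 2 stimulated and 3 unstimulated arrays), by role. Red and blue mark genes whose stimulated arrays lay all above (20 genes) or all below (10 genes) the unstimulated ones, grey the 26 with overlapping groups, and the diamond Atp6v1c1.

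The count of called members depended on the genes tested and on the scaling. Among the 10356 genes whose mean lay above that of the middle probe set, 5 members rose (Atp6v0e, Atp6v1a, Atp6v1b2, Atp6v1c1 and Ctsz) and 3 fell (Ctsl, Psap and Sqstm1) of 52 tested, against 7.96% and 6.91% of the genes in that fit. With each array centred on its median, 4 members rose and 2 fell, against 3.31% and 2.64% of genes. The counts were 4 and 2 after quantile normalization (4.14% and 3.66% of genes) and 3 and 2 after cyclic loess (3.10% and 3.34%). Among genes without repeated values, a set chosen after seeing the data, 6 of 35 members rose and 6 fell, against 20.4% and 15.3% of genes. Centring also moved the share of higher genes among all called genes to 55.6%, against 43.4% as deposited.

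The proton pump genes leaned upward, and mostly those of the V1 domain. Of 13 measured pump members, 1 rose and none fell, 9 (69.2%, against 18.6% of all genes) had stimulated arrays above all unstimulated ones and none had them below (against 14.0%), and the median difference was 0.35. The 1 called gene is 7.69% of the pump members, against 0.737% of all genes. At least 2 arrays held the same number for 2 of the 13 (15.4%, against 62.0% of all genes), which bears on the count without overlap. All 8 V1 members had a higher mean in stimulated cells, 7 of them without overlap (87.5%, against 18.6% of all genes), with a median of 0.44. Of the 5 measured V0 members, 2 were higher without overlap (40.0%) and 3 overlapped, with a median of -0.05. The difference between the domains was not tested.

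Atp6v1c1 codes for subunit C, which links the V1 and V0 domains. It read 8.80 and 8.79 on the stimulated arrays, against 7.98, 8.12 and 8.16 on the unstimulated arrays. The gap between the groups was wider than the range within either. It rose 1.63-fold, a log2 difference of 0.71 ± 0.07 (SE, n = 2 and 3 arrays, limma adjusted p = 0.0456). The adjusted p was 0.0722 to 0.153 when any 1 array was left out, so the call was lost without any of them. Where a group was left with 1 array, the other group alone supplied the spread, and the lone array was assumed to vary like it. Over all alternatives run, its difference stayed above 0 and its adjusted p ran from 0.00853 to 0.190.

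Subunit e of the membrane domain, coded by Atp6v0e, had the widest difference of the pump. Its values were 10.2 and 10.4 on the stimulated arrays, against 8.80, 9.41 and 9.26 on the unstimulated arrays. The groups did not overlap, but unstimulated array 1 stood well below the other two, and the difference of 1.15 ± 0.22 (SE) did not pass the test (adjusted p = 0.107). Atp6v1b2, which codes for the B subunit of the ATP-splitting head, read 7.99 and 8.18 after stimulation, against 7.28, 7.48 and 7.15 in unstimulated cells, a difference of 0.78 ± 0.13 (adjusted p = 0.0870). Atp6v1d, which codes for a subunit of the rotor, read 9.19 and 9.46, against 8.41, 8.55 and 8.87 in unstimulated cells, where array 3 was closest to the stimulated ones (0.72 ± 0.18, adjusted p = 0.159). These 3 subunits come from the head, the rotor and the membrane part of the pump, and in each the stimulated arrays were all above the unstimulated ones.

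The remaining V1 genes differed by less. The catalytic subunit gene Atp6v1a differed by 0.50 ± 0.08 (SE, adjusted p = 0.0820). Atp6v1e1, Atp6v1f and Atp6v1g1, genes of the stalks, differed by 0.38, 0.35 and 0.31 without overlap, and the regulatory subunit gene Atp6v1h by 0.09 with overlap. Atp6v1f and Atp6v1g1 had a further probe set each, with differences of 0.28 and 0.37. Among the V0 genes, Atp6v0a1 differed by 0.22 without overlap, while Atp6v0d1 (-0.05), Atp6v0a2 (-0.13) and Atp6v0b (-0.17) overlapped. The pump genes were thus not of 1 size: differences ran from -0.17 for Atp6v0b to 1.15 for Atp6v0e.

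Set against each unstimulated array alone, the pump median was 0.48, 0.21 and 0.40 for unstimulated arrays 1, 2 and 3. The mean of the stimulated arrays was above each of the 3 unstimulated arrays for 7 of 8 V1 members. The exception was Atp6v1h, which was lower by 0.03 against array 3. Atp6v1c1 differed by 0.81, 0.67 and 0.63 against the 3 arrays in turn, and Atp6v0e by 1.51, 0.90 and 1.05.

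**Figure D2:**
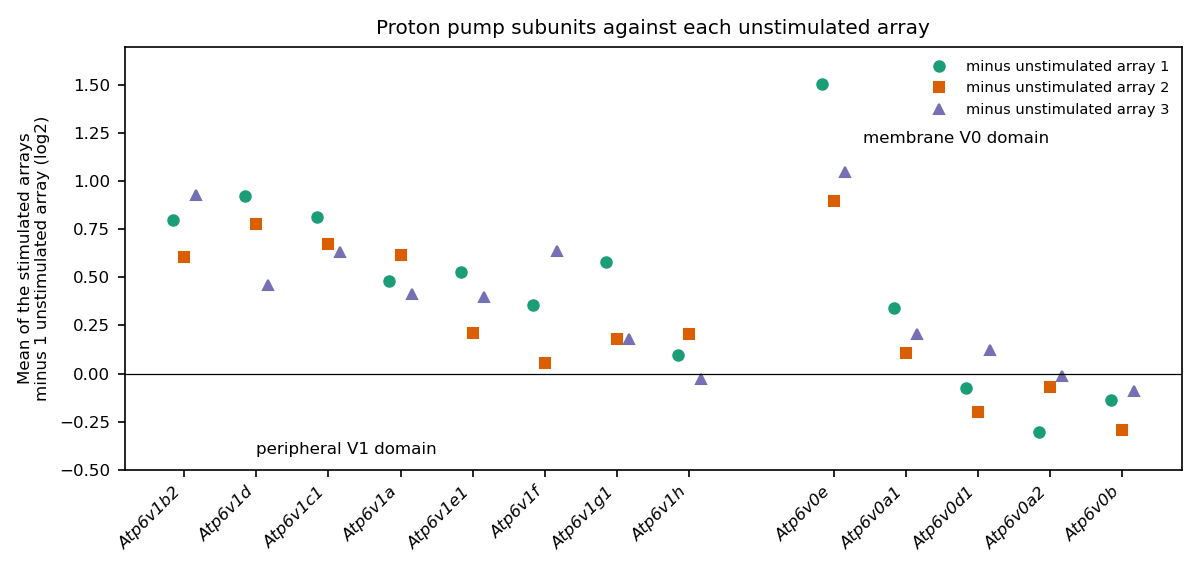
Mean of the 2 stimulated arrays minus each unstimulated array in turn (log2) for the 13 measured pump subunits, V1 genes on the left and V0 genes on the right. Each symbol is 1 unstimulated array, and the V1 genes other than Atp6v1h lie above 0 against all 3, as do Atp6v0e and Atp6v0a1 of V0.

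Promoter sequences are shown here because TFEB and TFE3 are known to act through CACGTG-type sites, and because the members whose promoters hold the CLEAR core did not move as 1 group. RefSeq promoter windows (build GRCm38.p6, 250 bases before to 50 after a gene's start) were at hand for 46 of the 57 members. The palindrome TCACGTGA, which reads the same on both strands, the inner 8 letters of the CLEAR element, was found in the windows of 7 of these members (15.2%), against 1.12% of all genes with a window. The wider motif CACGTG, which it contains, was found for 13 members (28.3%), against 8.09% of all genes, and the full CLEAR element, the core with G before it and C after it, for none, against 0.37%. Below, 30 bases around the core are printed 5′ to 3′ on the gene's strand, with TCACGTGA in capitals.
Atp6v0e: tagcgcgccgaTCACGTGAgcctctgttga
Atp6v1a: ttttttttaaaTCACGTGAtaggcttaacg
Atp6v0d1: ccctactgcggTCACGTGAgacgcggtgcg
Ctsa: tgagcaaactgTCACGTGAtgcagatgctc
Ctsd: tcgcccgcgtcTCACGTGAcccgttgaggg
Mcoln1: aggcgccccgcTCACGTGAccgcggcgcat
Atg3: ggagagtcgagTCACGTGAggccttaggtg
In the order printed, these stretches lie at chr17:26676387-26676416 (plus strand), chr16:44139373-44139402 (minus), chr8:105566050-105566079 (minus), chr2:164833749-164833778 (plus), chr7:142387908-142387937 (minus), chr8:3500462-3500491 (plus) and chr16:45158746-45158775 (plus). The motif of Atp6v0e begins 3 bases into the transcript, and those of the others begin 4 (Atp6v0d1) to 132 bases (Atp6v1a) before the start. The window of Ctsa held 2 matches, of which the first is shown. Of these 7 genes, the groups of arrays were apart for Atp6v0e and Atp6v1a, both higher after stimulation, and overlapped for Atp6v0d1, Ctsa, Ctsd, Mcoln1 and Atg3. The median difference was -0.01 over the 7 and 0.04 over the other 38 measured members with a window. A motif match is a description of the sequence and does not show that a factor binds there.

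The cathepsins went apart in both directions, and none of the 8 passed the test. Stimulated arrays lay above all unstimulated ones for 4 of the 8 (Ctsz, Ctsh, Ctsc and Ctsb), against 18.6% of all genes. They lay below all unstimulated ones for 2 of the 8 (Ctsl and Ctss), against 14.0% of all genes, while Ctsa and Ctsd overlapped. The difference from all genes was not tested. Ctsl and Ctss code for cysteine proteases that, in antigen-presenting cells, trim the invariant chain of MHC class II. Ctsl read 7.03 and 6.65 on the stimulated arrays, against 8.34, 8.08 and 7.71 on the unstimulated arrays. It was 2.30-fold lower after stimulation, a log2 difference of -1.20 ± 0.25 (SE, adjusted p = 0.116), the widest of all 56 members. Ctss read 8.43 and 7.68, against 9.18, 9.28 and 9.02 in unstimulated cells. The stimulated arrays were further from each other than the unstimulated ones, and the difference of -1.10 ± 0.27 did not pass (adjusted p = 0.148). Without stimulated array 1 it was -1.47 and without stimulated array 2 it was -0.73, so the size rests on which stimulated array is taken.

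Ctsz, which codes for a carboxypeptidase, went the other way. Its values were 8.48 and 8.31 after stimulation, against 7.24, 7.48 and 7.70 in unstimulated cells (0.92 ± 0.17 SE, adjusted p = 0.0959). The stimulated arrays lay close together and clear of the unstimulated range. The aminopeptidase gene Ctsh differed by 0.68 ± 0.28, with 7.44 on stimulated array 1 and 6.72 on array 2. Ctsc, whose product activates granzymes by removing a dipeptide, differed by 0.43 ± 0.14 (adjusted p = 0.235), and Ctsb by 0.32 ± 0.18. With any 1 array left out, the difference ran from 0.31 to 1.04 for Ctsh and from 0.15 to 0.49 for Ctsb. The aspartic protease gene Ctsd, at 8.26 and 8.62 against 8.36, 8.65 and 8.46 in unstimulated cells, overlapped, as did Ctsa, whose product shields other lysosomal enzymes.

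**Figure D3:**
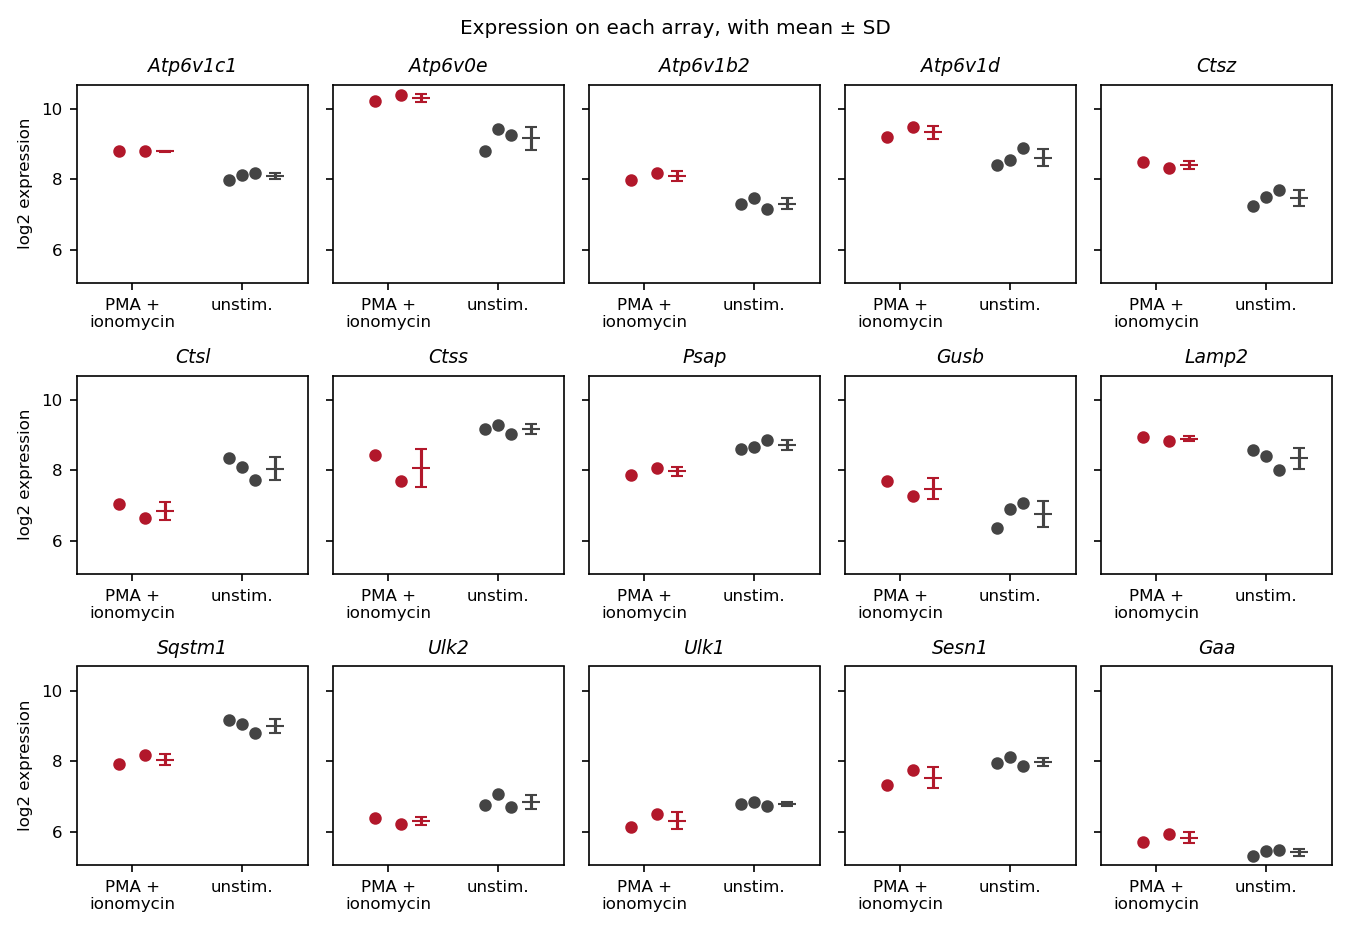
Log2 expression on each array for 15 members, stimulated (red, left, 2 arrays) and unstimulated (grey, right, 3 arrays), with the mean and SD beside the points. Only members with groups apart are drawn, while the groups overlapped for 26 of the 56 measured members. The stimulated points are higher for the pump genes, Ctsz, Gusb, Lamp2 and Gaa, and lower for Ctsl, Ctss, Psap, Sqstm1, Ulk2, Ulk1 and Sesn1.

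Among the 6 hydrolase and lipid handling genes none passed the test. Psap codes for prosaposin, the precursor of the saposins, which help enzymes reach sphingolipids. It read 7.87 and 8.06 after stimulation, against 8.59, 8.67 and 8.86 in unstimulated cells. The groups lay apart by more than either group's range, at a difference of -0.74 ± 0.11 (SE, adjusted p = 0.0794). Gusb, which codes for beta-glucuronidase, read 7.68 and 7.26, against 6.34, 6.89 and 7.06 in unstimulated cells. Its stimulated array 2 lay just above unstimulated array 3 (0.71 ± 0.29, adjusted p = 0.320). Gaa, whose enzyme breaks down glycogen in the lysosome, read 5.72 and 5.93, against 5.31, 5.45 and 5.49 in unstimulated cells (0.41 ± 0.10, adjusted p = 0.142). Hexa, which codes for the alpha chain of beta-hexosaminidase, differed by -0.20 ± 0.05 without overlap, and the cholesterol ester lipase gene Lipa (0.11) and the cholesterol carrier gene Npc2 (0.01) overlapped.

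Of the 4 membrane protein genes, Lamp2 stood out. LAMP2 and LAMP1 are the main glycoproteins of the lysosomal membrane. Lamp2 read 8.95 and 8.84 after stimulation, against 8.58, 8.40 and 8.01 in unstimulated cells, with no overlap (0.57 ± 0.20 SE, adjusted p = 0.263). Lamp1 read 8.44 and 8.51, against 8.42, 8.44 and 8.44, a difference of 0.04 ± 0.03. Mcoln1, which codes for a calcium channel of the lysosome, read 7.45 and 7.45, against 7.45, 7.52 and 7.45, and Npc1, the gene of the cholesterol exporter, differed by 0.02 ± 0.15. The groups of arrays overlapped for Lamp1, Mcoln1 and Npc1.

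In the autophagy machinery, none of the 18 members passed the test, 4 were higher and 4 lower without overlap (22.2% each way, against 18.6% and 14.0% of all genes), and the median difference was -0.04. The lower ones were the cargo receptor gene Sqstm1 and the 3 members of the initiation complex, Ulk1, Ulk2 and Atg13. Sqstm1, which codes for p62, read 7.92 and 8.16 after stimulation, against 9.15, 9.06 and 8.79 in unstimulated cells. It was 1.94-fold lower, with a difference of -0.96 ± 0.15 (SE, adjusted p = 0.0826). The gap between the groups was wider than the range within each.

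Ulk1 and Ulk2 code for the kinases that start autophagy when mTORC1 is off. Ulk2 read 6.37 and 6.22 after stimulation, against 6.76, 7.07 and 6.70 in unstimulated cells (-0.54 ± 0.14 SE, adjusted p = 0.169). Ulk1 read 6.14 and 6.49, against 6.77, 6.84 and 6.74, so the stimulated arrays differed from each other more than the unstimulated ones did (-0.47 ± 0.12, adjusted p = 0.167). Their partner Atg13 differed by -0.30 ± 0.09 (adjusted p = 0.196). All 3 were lower on each stimulated array than on any unstimulated array.

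The ubiquitin-like ATG8 proteins, which coat the growing membrane, had no common direction. Gabarapl1 differed by 0.42 ± 0.20 and Gabarap by 0.21 ± 0.10 without overlap, while Map1lc3b (-0.09 ± 0.23) and Gabarapl2 (-0.25 ± 0.18) overlapped. Map1lc3b and Gabarapl2 were each measured by a further probe set, with differences of -0.14 and -0.30. The enzymes that attach ATG8 proteins to lipid showed small differences. Atg3 differed by 0.05 ± 0.03, and stimulated array 1 alone departed from a value that the other 4 arrays shared. Atg5 (0.23, without overlap), Atg7 (-0.19), Atg12 (0.01), Atg16l1 (0.00) and the protease gene Atg4b (0.09) complete the set. The vesicle protein gene Atg9a differed by 0.10 ± 0.05 without overlap. Becn1, of the lipid kinase complex that nucleates the membrane, differed by -0.10 ± 0.08, and the lipid sensors Wipi1 by -0.13 and Wipi2 by 0.20.

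The 7 regulators held no called gene, and the median difference was -0.01. Tfeb read 5.53 and 5.54 after stimulation, against 5.55 on each unstimulated array, and Tfe3 differed by -0.08 ± 0.05 (SE). Both lay below the middle of all probe sets on every array. The sestrins are stress-induced brakes on mTORC1. Sesn1 read 7.32 and 7.74, against 7.95, 8.10 and 7.87 in unstimulated cells (-0.44 ± 0.16, adjusted p = 0.274), and -0.65 to -0.23 with any 1 array left out. Sesn2 read 6.10 and 6.35, against 6.10, 5.95 and 6.07, with array 1 of the stimulated group inside the unstimulated range (0.19 ± 0.10). Tsc1, whose product restrains mTORC1 through the GTPase RHEB, read 6.73 and 6.87, against 6.73, 6.73 and 6.67 (0.09 ± 0.05). Sesn3 (-0.08) and Ddit4 (0.05) overlapped, so of the mTORC1 brakes Sesn1 alone had groups apart, and its difference did not pass the test.

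Other genes of the same pathways gave few calls as well. Of 165 further measured genes in 7 lists (pump, proteases, hydrolases, membrane, sorting and fusion, autophagy, nutrient signalling), 1 rose and 3 fell, or 0.606% and 1.82%, against 0.737% and 0.963% of all genes. The groups did not overlap for 32 higher (19.4%, against 18.6% of all genes) and 33 lower ones (20.0%, against 14.0%). Galc, which codes for the enzyme that breaks down galactosylceramide, averaged 8.63 ± 0.0016 on the stimulated and 7.82 ± 0.10 on the unstimulated arrays (SD, n = 2 and 3). It rose 1.75-fold (log2 difference 0.81 ± 0.07 SE, limma adjusted p = 0.0440).

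Acp5, the gene of tartrate-resistant acid phosphatase, read 6.27 and 6.21 after stimulation, against 7.26, 7.14 and 7.01 in unstimulated cells, and fell by 0.90 on the log2 scale (SE 0.09, adjusted p = 0.0492). Fnip1, of the folliculin complex at the lysosome, read 8.68 and 8.69, against 9.34, 9.30 and 9.19, and fell by 0.59 (SE 0.06, adjusted p = 0.0479). Uvrag, whose product joins the Beclin 1 complex, read 8.29 and 8.34, against 9.17, 9.24 and 9.17, and fell by 0.88 (SE 0.03, adjusted p = 0.0229). For all of these genes the gap between the groups was wider than the range within either. With any 1 array left out, the adjusted p ran from 0.0320 to 0.0881 for Uvrag, from 0.0360 to 0.139 for Galc, from 0.0608 to 0.167 for Acp5 and from 0.0508 to 0.162 for Fnip1.

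Of the 13 measured further pump genes, 4 were higher and 1 lower without overlap (30.8% and 7.69%, against 18.6% and 14.0% of all genes) and none was called. The lists of further proteases (median -0.19), hydrolases (0.03), membrane genes (-0.02), sorting and fusion genes (0.02), autophagy genes (-0.01) and nutrient signalling genes (0.05) had median differences of less than 0.2 in size. A small median can hide wide differences: those of the 12 further proteases ran from -1.36 to 1.10. Of these 12, 2 were higher and 5 lower without overlap (16.7% and 41.7%, against 18.6% and 14.0% of all genes).

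Macrophages are rich in lysosomes, and their markers were set beside the members. Of 22 measured macrophage and monocyte markers, none passed the test, none was higher and 7 were lower without overlap (31.8%, against 14.0% of all genes). Summed on the linear scale they came to 1661 and 1456 on the stimulated arrays, against 2997, 2738 and 2956 on unstimulated arrays 1, 2 and 3. Without Ccr2, a chemokine receptor gene also read at 9.22 to 10.9 here, the sums were 960 and 858, against 1632, 1287 and 1081. Of the listed markers, Adgre1, Csf1r, Marco, Mertk, Fcgr1, C1qa, C1qb and C1qc lay between 4.45 (Adgre1) and 5.33 (C1qb) on all 5 arrays, below the middle of all probe sets. The 7 lower without overlap were Lyz2, Chil3, Ccr2, Cd14, Mrc1, Lyz1 and Marco. Marco is counted at a difference of only -0.03, as it read 4.87 and 4.87, against 4.89 on each unstimulated array. Cd14 read 5.31 and 5.13 after stimulation, against 6.48, 6.42 and 5.82 in unstimulated cells, and Mrc1 read 4.18 and 4.58, against 5.56, 4.59 and 4.59. Lyz2, a lysozyme gene of myeloid cells, read 4.11 and 3.98 after stimulation, against 7.88, 7.50 and 6.49 in unstimulated cells (adjusted p = 0.0778). Chil3, a product of alveolar macrophages, read 7.21 and 6.01, against 8.51, 7.57 and 7.50. The lysosomal macrophage marker Cd68 read 7.14 and 6.80, against 7.36, 7.14 and 6.93.

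For several markers of other cells, unstimulated array 3 was the lowest and array 1 the highest of the unstimulated arrays. Beside Scgb1a1 and Lyz2, these were the endothelial gene Cdh5 (9.71, 9.06 and 7.12 on unstimulated arrays 1, 2 and 3), the neutrophil gene S100a9 (9.49, 8.15 and 6.91) and the MHC class II gene H2-Ab1 (8.43, 8.05 and 6.89). Of 10 endothelial markers, 9 were lower in stimulated cells without overlap (90.0%, against 14.0% of all genes). Ctsl and Sqstm1 were likewise highest on unstimulated array 1 and lowest on array 3, Ctss was highest on array 2 and lowest on array 3, and Psap was lowest on array 1 and highest on array 3. Against unstimulated array 3 alone, Ctsl differed by -0.87, Ctss by -0.96, Psap by -0.89 and Sqstm1 by -0.74, so the stimulated mean was lower than that array as well. On that array Lyz2, S100a9 and Cdh5 were still above both stimulated arrays, where S100a9 read 4.97 and 5.09 and Cdh5 5.59 and 6.19. Not all markers were: Pecam1, the brightest endothelial marker, read 7.31 on unstimulated array 3, against 7.41 and 7.57 on the stimulated arrays. Of the 22 macrophage and monocyte markers, the stimulated mean was below unstimulated array 3 for 13 and above it for 6. The part of other cells' RNA in these differences was not tested. Over all 56 members, the mean of the stimulated arrays lay on the same side of all 3 unstimulated arrays for 46, and over all genes for 13072 of 19938.

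**Figure D4:**
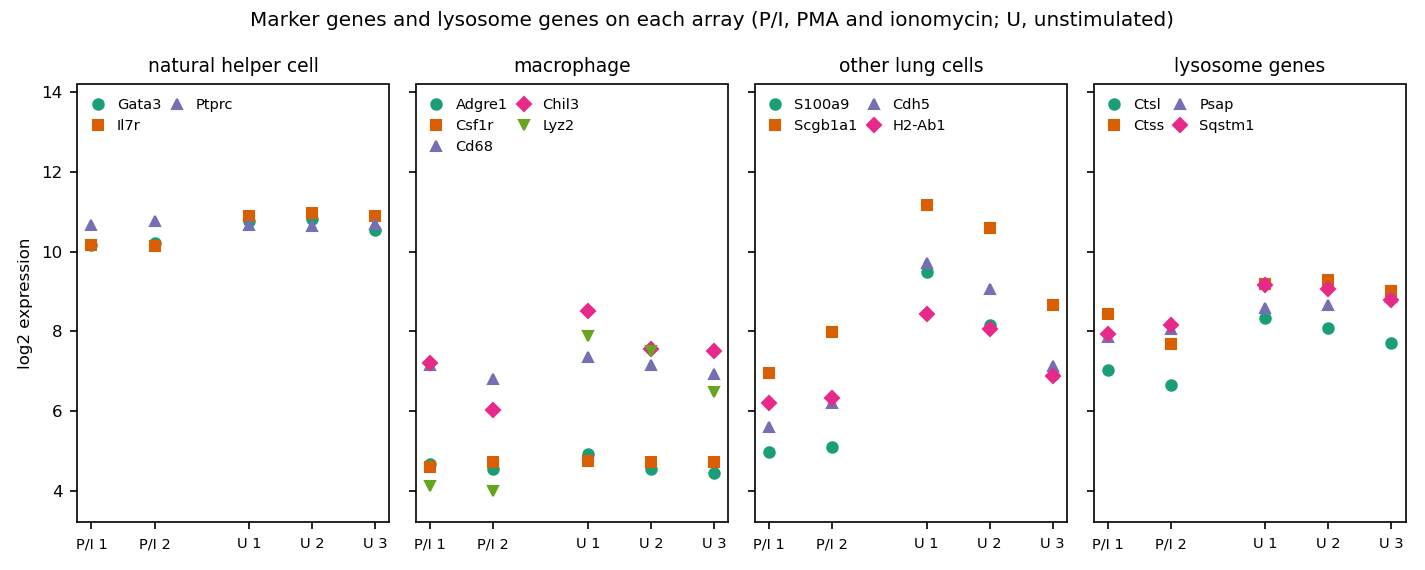
Log2 expression on each array, stimulated on the left and unstimulated on the right of each panel, for markers of natural helper cells, macrophages and other lung cells, and for 4 lysosome genes. Adgre1 and Csf1r stay between 4.45 and 4.91 throughout, while Scgb1a1, Cdh5, S100a9 and Lyz2 are lowest on unstimulated array 3 among the unstimulated arrays and lower still after stimulation.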

How the data were processed

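The deposited table holds log2 expression values, and per the submitters' processing notes the authors used RMA, which corrects background, normalizes arrays and summarizes probes. Its version, the software and the arrays normalized together are not given in the sources used here. No detection calls were used. With 5 arrays, precision is limited by their number. The table holds 35556 probe sets. The platform annotation gave 1 gene symbol for 21789 of them, several for 1621 (not used to name a gene), and did not list the other 12146, which are unnamed here. Entrez numbers matched 21698 of the single-symbol probe sets to the mouse RefSeq gene table, and no symbol changed.

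Stimulated and unstimulated arrays, grouped by sample title, were compared over all 19938 genes in R 4.3.3 by limma 3.58.1, using lmFit and eBayes without covariates and without removing dim genes, with Benjamini-Hochberg adjustment and a threshold of 0.05. The script was tested on simulated data. Exact permutation of these arrays allows 10 splits, hence no p below 0.1, and was not used. Rises and falls are written only of called genes.

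The members and lists were chosen with earlier results of these data known. Every member could be named, with values on each array for called members and the 3 widest differences of each role. Of other pathway genes, up to 4 called genes per list were named, and of other cells' markers, those of macrophages and natural helper cells and the 3 brightest of other lists. Alternatives were other variance models, weighting of arrays, removal of dim genes, another probe set or their mean, 3 normalizations, other thresholds, the replicate number as a block, each unstimulated array alone and leaving out each array. The fit restricted to genes with 5 distinct values and the marker sum without Ccr2 were added after seeing the data. Promoter sequences are from RefSeq. Plots were drawn with matplotlib 3.10.9.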

Additional observations from a re-analysis of the deposited data

How the results depend on the processing

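The count of members called higher was 1 and that called lower 0. The count called higher was 0 with robust variances, with a difference of 1 or more also required, and at a threshold of 0.01. Against unstimulated array 1, 2 or 3 alone, the spread came from the stimulated arrays alone, so only differences are given for those fits. The count called higher was 5 among genes above the median probe set, 4 with centred arrays, 4 after quantile and 3 after cyclic loess normalization. It was 4 at a threshold of 0.1, and 6 among genes without repeated values, where fewer genes were tested. The count called lower was 3, 2, 2, 2, 2 and 6 under those 6 alternatives. The share of all genes at a threshold of 0.1 was not taken, so the counts at that threshold have nothing to be set against. Leaving out any 1 array gave 0 to 1 higher and 0 lower, the 1 being Atg3 without stimulated array 2, where its unstimulated values are equal.

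The labels do not say whether samples with the same replicate number are paired. Deviations from the group means correlated by -0.14 for number 1 and -0.06 for number 2 across genes. These values cannot settle it, as the deviations of the 2 stimulated arrays mirror each other. With the number as a block, fitted on 4 arrays, no member was called (18 at an unadjusted p under 0.05), and no gene of the whole table was (3568 at an unadjusted p under 0.05 in limma).

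Over all genes, 147 rose and 192 fell. These counts were 45 and 66 with robust variances, 317 and 351 among genes above the lower quartile, 824 and 716 among those above the median, 660 and 526 with centred arrays, 825 and 729 after quantile and 619 and 666 after cyclic loess normalization. Without 1 array they ran from 0 and 0 (unstimulated array 2, 3024 genes at an unadjusted p under 0.05 in limma) to 361 and 413 (stimulated array 2).

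The median difference of the hydrolase group (0.06) was -0.0497 with the replicate block, -0.11 and 0.27 against unstimulated arrays 2 and 3 alone, and -0.0497 to 0.15 with 1 array left out. That of the membrane group (0.03) was 0.0869 with the block, 0.14 against unstimulated array 1 alone, -0.003 to 0.0869 with 1 array left out, and 0.57 where Lamp2 alone was tested, without repeated values. In that fit the autophagy median (-0.04) was -0.22 and the regulator median (-0.01) was -0.13. The autophagy median was 0.0023 among genes above the median probe set, 0.0129 against unstimulated array 3 alone and 0.0129 without unstimulated array 2. The regulator median was 0.0463 among genes above the median probe set, 0.0107 with centred arrays and 0.0074 after quantile normalization. The membrane median was -0.0035 after quantile and -0.0133 after cyclic loess normalization. The pump median (0.35) ran from 0.21 to 0.48 over all alternatives. The cathepsin median (0.16) was -0.0098 against unstimulated array 2 alone and 0.0911 to 0.32 under the others.

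Of 1263 member values under alternatives, 37 changed sign, in 12 members whose differences were at most 0.11 in size. Against unstimulated array 1 alone these were Ctsa (0.009) and Ctsd (0.0778), against array 2 Atg16l1 (-0.0219), Lipa (-0.0636) and Npc2 (-0.16), and against array 3 Atp6v0d1 (0.12), Atp6v1h (-0.0282), Ctsa (0.19), Map1lc3b (0.28) and Npc1 (-0.20). Centring gave 0.0142 for Ctsa and 0.0107 for Tfeb. Cyclic loess gave Atg12 -0.0229, Atg16l1 -0.0321, Lamp1 -0.0045, Npc1 -0.0221 and Npc2 -0.0320. Quantile normalization gave Atg16l1 -0.0057, Npc1 -0.0095, Npc2 -0.0167 and Tfeb 0.0074. The replicate block gave Atg16l1 -0.0037, Lipa -0.0218 and Npc2 -0.0776. With 1 array left out, Atg16l1 ran from -0.0121 to 0.0168, Atp6v0d1 from -0.14 to 0.0232, Ctsa from -0.10 to 0.0974, Ctsd from -0.23 to 0.13, Lipa from -0.0218 to 0.20, Map1lc3b from -0.28 to 0.0572, Npc1 from -0.0834 to 0.13 and Npc2 from -0.0776 to 0.0981. Why these values moved was not tested.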
